A study of Mus musculus with 4 samples.

Results

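H3K27ac regions that were called in both of 2 genotypes of dystrophic mouse heart formed 401 pairs, each made of 1 region of the mdx IKKβf/f list and 1 region of the mdx HRTΔIKKβ list that overlap on the genome. The pairs were chosen by position alone, as every row of one list that shares at least 1 bp with a row of the other. They take in 401 of the 12566 regions of mdx IKKβf/f hearts, which is 3.19% of that list (95% Wilson interval 2.90% to 3.51%), and 401 of the 22981 regions of mdx HRTΔIKKβ hearts, which is 1.74% (1.58% to 1.92%). No region had more than 1 partner. These shares follow from the rule and are given as a description.

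The hearts came from 7-month-old male mdx mice, which lack dystrophin. All of them also carried floxed alleles of IKKβ, the kinase that activates classical NF-κB signalling. In mdx HRTΔIKKβ mice, Myh6-cre, a recombinase under a promoter active in cardiomyocytes, deletes IKKβ from those cells and leaves it in the other cells of the heart, while mdx IKKβf/f littermates keep it in every cell. There was 1 H3K27ac ChIP-seq library per genotype, of 57852347 tags for mdx IKKβf/f and 62458751 for mdx HRTΔIKKβ, and 1 input library each, chromatin sequenced without the antibody, which enters here through the input columns of the lists. How many hearts went into a library is not given in the sources used here. With 1 library per genotype there is no spread between hearts to compare a difference with, and no test was made. The regions are not replicates of a genotype, and the intervals cover counting error only. The floxed gene, Ikbkb, held no region in either list, so these data do not check its deletion.

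Acetylation of histone H3 on lysine 27 is laid down by the acetyltransferases p300 and CBP and removed by histone deacetylases. It marks active enhancers and active promoters and sets them apart from primed or silent ones. In heart tissue the mark is known to gather over genes of the contractile apparatus and over enhancers bound by GATA4, MEF2 and TEAD factors. A ChIP of a whole heart mixes cardiomyocytes with fibroblasts, endothelial cells and immune cells, and fewer cells of a type cannot be told apart from less of the mark per cell.

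DNA of 6 pairs is shown because the pairs with high signal within a gene, membership of a fixed gene list or company within a gene are the ones described most fully below. Each sequence is 300 bp of the mm9 genome, plus strand, centred on the stretch shared by the regions of both genotypes, with CpG dinucleotides in capitals. CpG is the site of DNA methylation and is dense in many promoters.
Hira intron, chr16:18951025-18951324, the highest mean signal within a gene: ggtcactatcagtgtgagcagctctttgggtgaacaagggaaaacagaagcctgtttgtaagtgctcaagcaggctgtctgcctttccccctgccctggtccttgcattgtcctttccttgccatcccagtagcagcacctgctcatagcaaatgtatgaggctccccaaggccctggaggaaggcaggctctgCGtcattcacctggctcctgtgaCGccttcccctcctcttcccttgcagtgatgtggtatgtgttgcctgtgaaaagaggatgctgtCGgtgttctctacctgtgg
Mmp2 exon 5, chr8:95356899-95357198, extracellular matrix list: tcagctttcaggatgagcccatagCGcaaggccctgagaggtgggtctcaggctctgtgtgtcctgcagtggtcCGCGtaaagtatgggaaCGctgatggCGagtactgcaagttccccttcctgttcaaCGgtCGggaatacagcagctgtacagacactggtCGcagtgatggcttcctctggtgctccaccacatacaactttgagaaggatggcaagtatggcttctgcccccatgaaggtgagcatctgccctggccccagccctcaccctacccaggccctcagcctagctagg
Kcnd3 intron, chr3:105401029-105401328, potassium channel list: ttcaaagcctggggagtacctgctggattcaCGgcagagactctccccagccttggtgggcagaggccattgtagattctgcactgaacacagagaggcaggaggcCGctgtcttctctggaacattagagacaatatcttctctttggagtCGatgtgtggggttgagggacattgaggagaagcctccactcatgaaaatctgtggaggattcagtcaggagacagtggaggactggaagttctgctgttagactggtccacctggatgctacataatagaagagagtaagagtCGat
Abcc8 intron, chr7:53416055-53416354, potassium channel list: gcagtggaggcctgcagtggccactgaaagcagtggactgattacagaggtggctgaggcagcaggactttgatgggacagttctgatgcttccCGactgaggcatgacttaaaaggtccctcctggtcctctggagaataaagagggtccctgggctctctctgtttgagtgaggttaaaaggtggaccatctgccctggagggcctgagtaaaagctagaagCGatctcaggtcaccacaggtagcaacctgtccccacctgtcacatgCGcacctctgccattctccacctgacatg
Camk1g intron, chr1:195187029-195187328, calcium signalling list: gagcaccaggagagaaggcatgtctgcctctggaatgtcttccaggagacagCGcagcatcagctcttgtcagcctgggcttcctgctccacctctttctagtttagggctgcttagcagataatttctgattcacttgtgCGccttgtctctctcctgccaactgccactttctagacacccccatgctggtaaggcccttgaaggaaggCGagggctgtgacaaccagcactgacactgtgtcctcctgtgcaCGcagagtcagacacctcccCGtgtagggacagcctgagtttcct
Erc2 intron, chr14:29158999-29159298, 1 of 3 pairs in that gene: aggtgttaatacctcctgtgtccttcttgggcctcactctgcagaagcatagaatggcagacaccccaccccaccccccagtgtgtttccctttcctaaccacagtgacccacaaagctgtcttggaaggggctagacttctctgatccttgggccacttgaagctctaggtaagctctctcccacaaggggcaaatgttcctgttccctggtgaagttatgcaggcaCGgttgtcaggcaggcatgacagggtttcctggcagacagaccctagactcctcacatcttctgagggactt

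The windows differ more in CpG than in GC content. The Kcnd3 window had a GC content of 50.7% with 4 CpG. The Mmp2 window held 8 CpG at 57.7% GC, while the Erc2 window held 1 at 53.7%.

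The overlaps ran from 1 bp to 673 bp, with a median of 337 bp and quartiles of 191 and 450 bp. In 251 pairs (62.6%, 57.8% to 67.2%) both regions were exactly 500 bp wide, the width of a single window of the caller. In 236 pairs (58.9%, 54.0% to 63.6%) the overlap took up at least 50% of each region. Among the 251 pairs of single windows, the centres lay less than 100 bp apart in 71 and 400 to 500 bp apart in 36, with 58, 43 and 43 pairs in the 100 bp steps between. Close alignment was thus the most frequent step, and every wider offset was also filled.

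The rule draws its line at 1 bp, and many regions lay close to it. The shortest overlap, of 1 bp, was on chromosome 9 (74391807 to 74392307 in mdx IKKβf/f, 10.0 normalized tags per kb, and 74392306 to 74392806 in mdx HRTΔIKKβ, 13.1). The next had overlaps of 4 bp on chromosome 10, 8 bp on chromosome 4 and 11 bp on chromosome 16. Just outside the line, the nearest regions of opposite lists were 3 bp apart on chromosome 16 (10.0 and 9.28 tags per kb), 3 bp apart on chromosome 7 (9.68 and 12.3) and 9 bp apart on chromosome 8 (9.34 and 9.28). In all, 53 pairs overlapped by less than 100 bp, and 46 mdx IKKβf/f regions without a partner had an mdx HRTΔIKKβ region less than 100 bp away.

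Regions of one list were more frequent right beside a region of the other than a few kb away. Counting every combination of 1 region of each list by the distance between centres, 235 combinations lay within 250 bp and 148 between 250 and 500 bp. There were 112 from 500 to 750 bp and 95 from 750 to 1000 bp. From 1 to 5 kb each 250 bp step held 103 on average (86 to 118), and from 5 to 20 kb it held 93.4 (71 to 121). No step from 500 bp to 5 kb held more than 118, so the high counts were those of the first 500 bp.

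**Figure D1:**
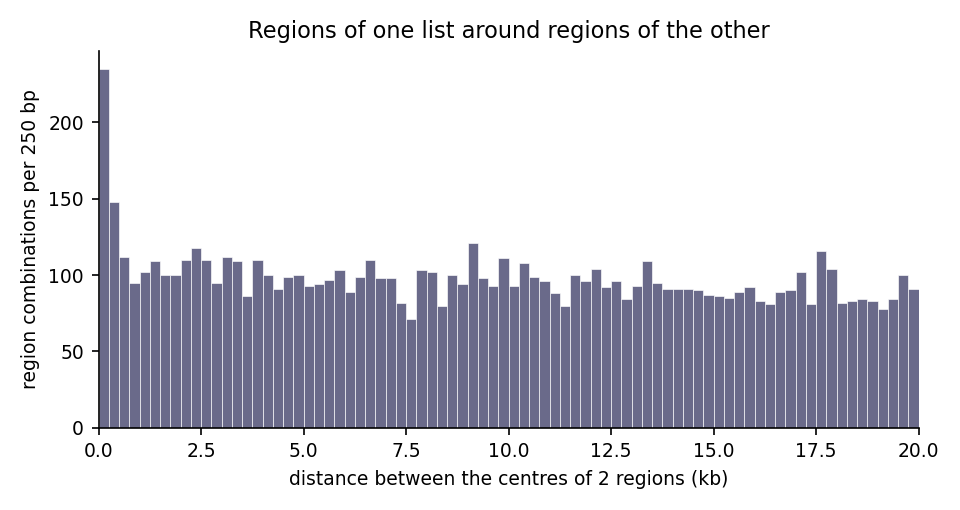
Combinations of 1 mdx IKKβf/f and 1 mdx HRTΔIKKβ region, counted by the distance between their centres in steps of 250 bp up to 20 kb. The first bar holds 235 combinations, the second 148, and the bars from 5 to 20 kb average 93.4.

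Signal was read as normalized tags per kb, the tags of a region scaled to 10000000 per library and divided by its width. In the pairs, the mdx IKKβf/f regions had a median of 10.7 (quartiles 10.0 and 11.4, range 8.66 to 18.3) and the mdx HRTΔIKKβ regions a median of 10.2 (9.60 and 11.5, 8.13 to 22.0). Regions without a partner had medians of 10.4 and 9.92. The pairs were thus only slightly above the rest of their own list, and both lists sat low, since the caller's threshold was 29 tags per window in the first genotype and 30 in the second, where it expected 14.5 and 15.6. Fold over the input was no higher in the pairs, with medians of 5.09 and 5.0 against 5.16 and 5.0 without a partner. Only 12 pairs (2.99%, 1.72% to 5.16%) reached 8-fold over input in both genotypes.

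The share of regions with a partner rose with the findPeaks score, the caller's own value for a region. What it counts is not defined in the sources used here. Its lowest values are the caller's thresholds of 29 and 30 tags, but in 68.1% of the 500 bp regions of mdx IKKβf/f and 70.2% of those of mdx HRTΔIKKβ it was above the tags listed for the region. In mdx IKKβf/f it was 2.70% (2.27% to 3.21%) at scores of 29 and 30 and 5.33% (3.95% to 7.15%) at 39 and over. In mdx HRTΔIKKβ it was 1.38% (1.16% to 1.64%) at 30 and 31 and 3.43% (2.66% to 4.41%) at 40 and over. In both lists the intervals of the lowest and the highest class did not overlap. Regions wider than 500 bp had a partner in 4.43% of cases against 2.99% of those exactly 500 bp wide in mdx IKKβf/f, and in 2.42% against 1.62% in mdx HRTΔIKKβ, and a wider region covers more bases in which a partner can lie. Input tags were also slightly higher in paired regions, at a mean of 4.4 against 4.09 in mdx IKKβf/f and 3.95 against 3.59 in mdx HRTΔIKKβ, and their part in the pairing was not tested.

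Between genotypes, the median log2 ratio of tags per kb over the 401 pairs was -0.06, with mdx IKKβf/f as the denominator, and single pairs ran from -0.75 to 0.85. In 162 pairs (40.4%, 35.7% to 45.3%) the value was higher in mdx HRTΔIKKβ. The lists differ by as much without any pairing. The caller's threshold comes to 10.03 normalized tags per kb for the mdx IKKβf/f list against 9.61 for the other, a log2 ratio of -0.06, and the medians of the regions without a partner give -0.07. Over all 401 pairs the shift is thus of the same size as that of the lists. In the 251 pairs of 500 bp regions the median log2 ratio was -0.11. The exact 95% interval of the tag ratio held 1 in 393 pairs. It lay above 1 in 5 pairs, 1.25% of the 401, and below 1 in 3 pairs, 0.748%. Both regions of a pair had to pass the caller, so a place left uncalled in either genotype could not enter. The threshold is no floor for the listed tags, as 21.8% and 24.8% of 500 bp regions in mdx IKKβf/f and mdx HRTΔIKKβ held fewer. The regions of a pair also cover partly different bases. The values of the genotypes were only weakly related across pairs. Across the 401 pairs Pearson's r of tags per kb was 0.181 and Spearman's rho 0.107, given as a description of regions that share 2 libraries and, within a pair, base composition. Of the 40 pairs highest in mdx IKKβf/f, 8 were among the 40 highest in mdx HRTΔIKKβ. That is a larger share than the 40 of all 401 pairs that make up the second group.

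**Figure D2:**
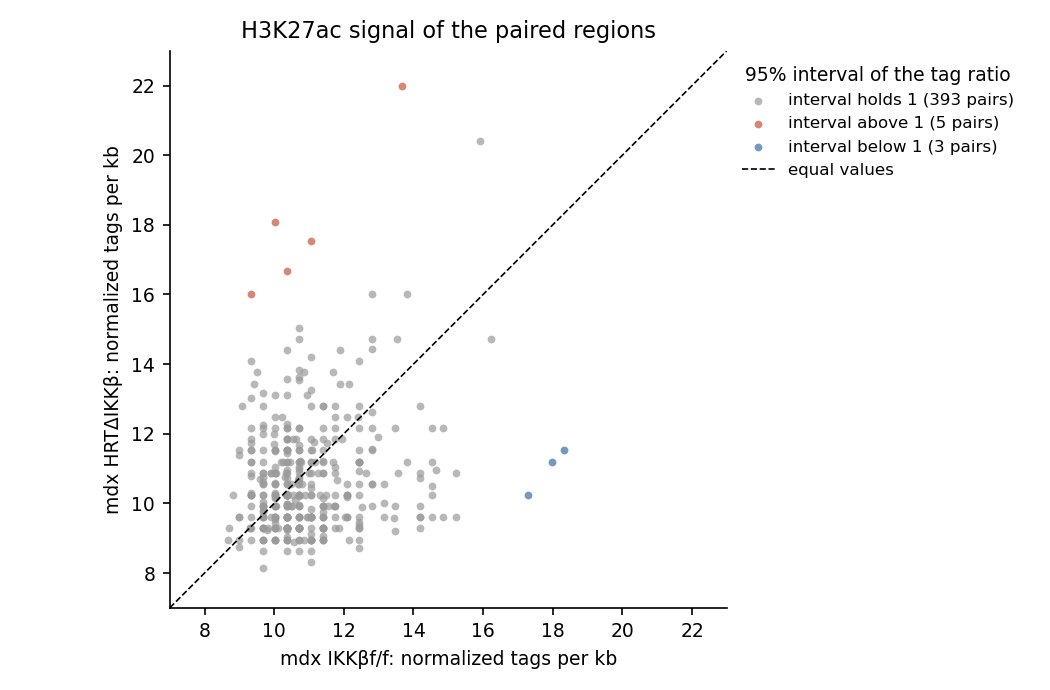
Normalized tags per kb of the mdx IKKβf/f region (horizontal axis) and of the mdx HRTΔIKKβ region (vertical axis) in each of the 401 pairs, with equal values on the dashed line. Grey points are the 393 pairs whose exact 95% interval of the tag ratio holds 1, red points the 5 above and blue points the 3 below.

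The highest mean signal of all was that of a pair on unplaced sequence, with 15.9 and 20.4 tags per kb, which has no annotation. The highest mean within a gene was in intron 18 of Hira, which encodes a chaperone of histone H3.3, with 13.8 tags per kb in mdx IKKβf/f against 16.02 in mdx HRTΔIKKβ and a ratio of 1.16 (0.749 to 1.80), a difference within counting error. The regions of the Hira pair overlapped by only 86 bp. Among the 10 highest means, 3 more pairs between genes are described only here. One was 367 kb from the start of Prr16 on chromosome 18 (16.2 and 14.7 tags per kb). On chromosome 7, one was 31.4 kb from Siglech, a sialic acid-binding lectin gene (12.8 and 16.02), and one was 171 kb from Tcerg1l (13.5 and 14.7).

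The interval of the ratio lay above 1 in 5 pairs, of which 4 are described. The largest ratio was over the single exon of 2300003K06Rik on chromosome 11, with 10.0 tags per kb (6.71 to 14.4) against 18.1 (14.3 to 22.5) and a ratio of 1.80 (1.17 to 2.86). Wbp2nl encodes a protein of the sperm head. At its start the regions overlapped by only 39 bp, and the values were 9.34 and 16.02 with a ratio of 1.72 (1.05 to 2.85). Camta1 encodes a calmodulin-binding transcription activator. In its intron 6 the overlap was 75 bp, and the values were 10.4 and 16.7 with a ratio of 1.61 (1.01 to 2.61). The last lay between genes on chromosome 8 (11.1 and 17.5, ratio 1.59, 1.03 to 2.50). In the Wbp2nl and Camta1 pairs the values of the genotypes come mostly from different bases.

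The interval lay below 1 in 3 intergenic pairs. The pair whose nearest protein-coding start was that of Tmem45b, 147 kb away on chromosome 9, had 17.3 tags per kb (12.8 to 22.8) against 10.2 (7.01 to 14.5) and a ratio of 0.593 (0.368 to 0.942). A pair 21.8 kb from the start of Adra2c, the gene of the alpha-2C adrenergic receptor, had 17.98 (13.4 to 23.6) against 11.2 (7.81 to 15.6), a ratio of 0.623 (0.394 to 0.975). A pair 59.8 kb from Hmx1, a homeobox gene, had the highest mdx IKKβf/f value of the 401 at 18.3 (13.7 to 24.0), against 11.5 (8.07 to 15.96), a ratio of 0.629 (0.400 to 0.979). Next lowest, with intervals that held 1, were an exonic pair of AU021092 (15.2 against 9.60, ratio interval 0.383 to 1.03) and a pair 1.84 kb from the start of Gpr6, an orphan receptor gene (14.9 against 9.60, 0.391 to 1.05). The regions of the Gpr6 pair overlapped by only 4 bp. The Adra2c and Hmx1 pairs lie on the same stretch of chromosome 5. The 8 pairs whose interval left out 1 were singled out of 401 by this ratio, and their intervals do not allow for that choice. They are 1.995% of the pairs. Both regions of a pair had to pass the caller at similar thresholds, so the 5% left out by 95% intervals is no benchmark. No single pair is shown to differ between the genotypes.

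In position, the 399 pairs on assembled chromosomes were spread much as the other regions were, with more at promoters and fewer in introns. Within 3 kb of a transcription start site (TSS) lay 63 pairs (15.8%, 12.5% to 19.7%), against 11.9% of mdx IKKβf/f regions without a partner (11.3% to 12.5%) and 12.1% of mdx HRTΔIKKβ regions without one (11.7% to 12.6%). The interval of the pairs overlapped that of mdx HRTΔIKKβ here and barely cleared that of mdx IKKβf/f. Counting the TSS of protein-coding genes only, the share was 12.3% (9.42% to 15.9%) against 9.21% (8.71% to 9.74%) and 9.39% (9.02% to 9.78%), and the intervals overlapped. Within 1 kb lay 33 pairs (8.27%, 5.95% to 11.4%), against 4.99% and 4.98%. Introns held 106 pairs (26.6%, 22.5% to 31.1%) against 33.7% and 34.5%, exons 21 (5.26%) against 3.56% and 3.43%, and intergenic sequence 209 (52.4%) against 50.8% and 49.96%. The median distance to a TSS was 28.6 kb (95% interval 22.6 to 34.7), against 27.7 and 25.3 kb, and 81 pairs (20.3%) lay over 100 kb from any. Most pairs therefore lay outside promoters, as did most regions of both lists.

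Median signal by position stayed inside the quartiles of all pairs in both genotypes. The 63 promoter pairs had medians of 11.0 tags per kb in mdx IKKβf/f against 10.3 in mdx HRTΔIKKβ, the 106 intron pairs 10.4 and 10.2, and the 209 intergenic pairs 10.7 and 10.2. The share higher in mdx HRTΔIKKβ was 41.3% at promoters, 42.5% in introns, 37.8% between genes and 52.4% (11 of 21) in exons.

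Base composition differed between paired regions and the rest in both lists. The 300 bp at the centre of a region had a median GC content of 50.7% (49.7% to 51.3%) in mdx IKKβf/f regions with a partner and 48.3% (48.0% to 48.3%) in those without, and of 50.3% (49.3% to 51.0%) against 48.3% in mdx HRTΔIKKβ. The share with a partner rose from 1.57% (0.995% to 2.47%) of mdx IKKβf/f regions under 40% GC to 5.62% (3.70% to 8.43%) at 60% and over, and from 0.740% (0.424% to 1.29%) to 3.19% (2.03% to 4.98%) in mdx HRTΔIKKβ. It was higher in each successive class of GC in both lists, though neighbouring classes often had intervals that overlapped. The increase was not limited to promoters. Away from them, 3.97% (3.41% to 4.61%) of mdx IKKβf/f regions of 50% GC or more had a partner and 2.51% (2.17% to 2.90%) of those below, and at promoters the values were 5.45% (4.16% to 7.12%) and 2.21% (1.30% to 3.75%). In mdx HRTΔIKKβ they were 2.24% and 1.33% away from promoters. At promoters they were 2.69% (2.02% to 3.58%) and 1.60% (1.01% to 2.52%), with intervals that overlapped. Both below 50% GC and from 50% up, the intervals of promoter and other regions overlapped in both lists. Amplification and sequencing are known to vary with GC content, and the part of GC in the pairing was not tested.

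**Figure D3:**
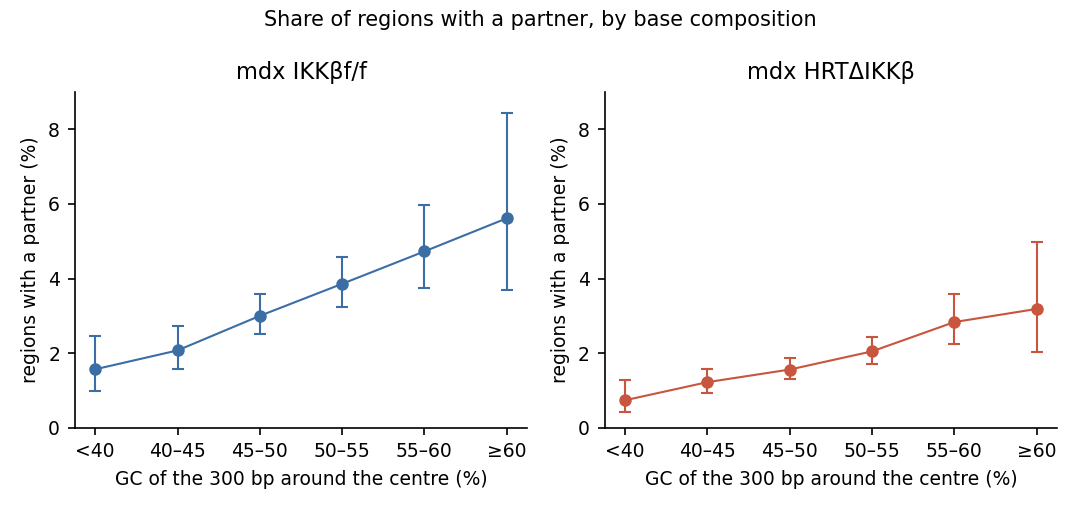
Percentage of regions that have a partner in the other list, by the GC content of the 300 bp around the region's centre, for mdx IKKβf/f (left, blue) and mdx HRTΔIKKβ (right, red). Bars are 95% Wilson intervals, and the points rise from 1.57% to 5.62% and from 0.740% to 3.19%.

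CpG-dense pairs were few. A GC content over 50% together with a ratio of observed to predicted CpG over 0.6, as in a CpG island, was met by 9 of 399 pairs (2.26%, 1.19% to 4.23%), against 1.32% and 1.18% of regions without a partner in the mdx IKKβf/f and mdx HRTΔIKKβ lists. Of these 9, 4 were at promoters. They included the pair over exon 1 of Fezf1, a zinc finger transcription factor of the forebrain, with 14.5 tags per kb in mdx IKKβf/f against 10.2 in mdx HRTΔIKKβ.

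Short motifs of heart and NF-κB factors were no more frequent in the pairs than in all regions, within counting error. The GATA motif AGATAA, on either strand, was in 42 of the 399 windows of 300 bp (10.5%, 7.88% to 13.9%) against 13.4% of all 35504 regions on assembled chromosomes. The TEAD motif CATTCC was in 15.3% (12.1% to 19.2%) against 17.1%, and the E-box CANNTG in 83.0% (79.0% to 86.3%) against 84.8%. The MEF2 motif was in 2.51% against 2.17%, the SRF CArG box in 1.003% against 1.39%, the NF-κB motif in 3.76% (2.29% to 6.11%) against 3.30%, and the CTCF core in 0.251% against 0.132%. Each motif was counted on its own, and matches of different motifs may share bases. A match is a description of the letters and not a bound site.

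By chromosome, the pairs were most frequent on chromosome 7. It held 44 pairs, which is 5.26% of its 837 mdx IKKβf/f regions (3.94% to 6.98%) and 2.76% of the 1594 regions of the other list (2.06% to 3.69%). Both intervals lay above the share of the whole list, 3.19% and 1.74%. The fewest pairs for their regions were on chromosome 10, with 12 (1.97%, 1.13% to 3.42%, and 1.14%, 0.656% to 1.99%). Chromosome X had no pair among its 6 and 21 regions, where the upper Wilson limits are 39.03% and 15.5%. On chromosome 7 the mdx IKKβf/f share was higher both below 50% GC (3.84%, 2.44% to 5.99%, against 2.40% on the other autosomes) and above it (7.07%, 4.87% to 10.2%, against 4.02%). Below 50% GC the interval of the other autosomes, 2.07% to 2.78%, overlapped that of chromosome 7. The mdx HRTΔIKKβ share below 50% GC was 1.89% (1.19% to 3.01%), an interval that held the 1.32% of the other autosomes. Above 50% GC it was 3.88% (2.68% to 5.6%) against 2.20%. Chromosome 7 was singled out of 19 autosomes after the shares were seen. Its pairs had a median of 10.7 tags per kb in mdx IKKβf/f against 10.9 in mdx HRTΔIKKβ.

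**Figure D4:**
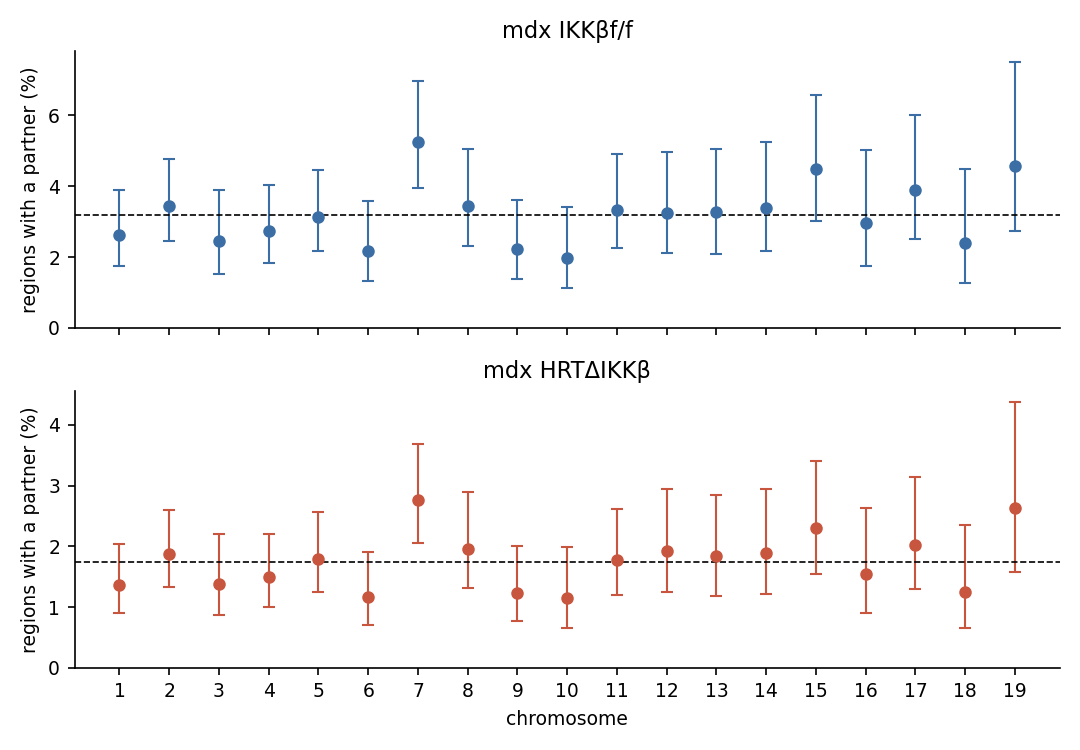
Percentage of the regions of each autosome that have a partner, for mdx IKKβf/f (top) and mdx HRTΔIKKβ (bottom), with 95% Wilson intervals. Dashed lines are the shares of the whole lists, 3.19% and 1.74%. Chromosome 7 lies at 5.26% and 2.76%.

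Pairs were sparse along the genome, and few were neighbours. The median distance from a pair to the next was 1470 kb. Another pair lay within 100 kb of 32 pairs (8.02%, 5.74% to 11.1%), which made 14 groups, 11 of them of 2 pairs. Pairs sat in somewhat denser surroundings than other regions: mdx IKKβf/f regions with a partner had a mean of 1.94 other mdx IKKβf/f and 3.22 mdx HRTΔIKKβ regions within 100 kb, with the partner not counted, against 1.55 and 2.78 for those without.

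The largest group had 4 pairs over 121 kb of chromosome 5 (35749022 to 35870356), from downstream of Hmx1 to just upstream of Cpz, which encodes a carboxypeptidase. From the Hmx1 side the pairs had 13.0, 14.2, 18.3 and 9.34 tags per kb in mdx IKKβf/f against 11.9, 10.7, 11.5 and 11.7 in mdx HRTΔIKKβ. Values were thus higher in mdx IKKβf/f in the 3 pairs next to Hmx1 and lower in the pair 2.01 kb from the start of Cpz. The interval of the ratio held 1 in 3 of the 4, and the exception, the 18.3 pair, is among the 8 described above. The surrounding 400 kb held 17 mdx IKKβf/f and 13 mdx HRTΔIKKβ regions, of which 4 in each list were paired. That is 23.5% (9.56% to 47.3%) and 30.8% (12.7% to 57.6%), against 3.19% and 1.74% of the whole lists, in a stretch chosen for its pairs.

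**Figure D5:**
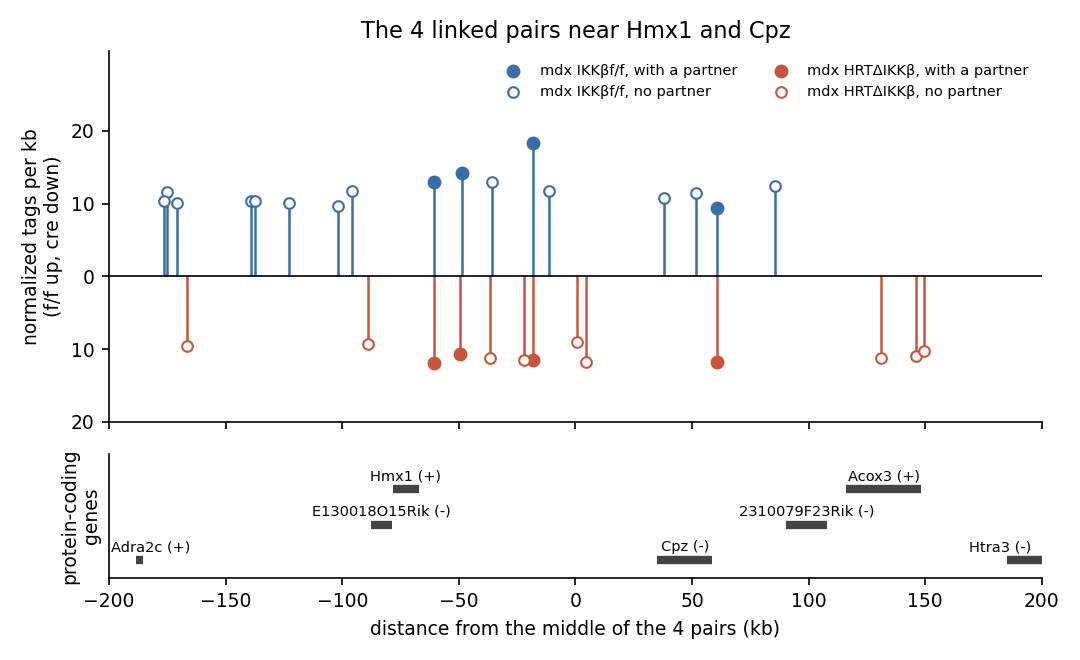
H3K27ac regions in 400 kb around the 4 linked pairs near Hmx1 and Cpz, by distance in kb from their middle, with mdx IKKβf/f tags per kb drawn upward (blue) and mdx HRTΔIKKβ downward (red). Filled circles are regions with a partner (4 in each list), open circles those without, and dark bars are protein-coding genes with their strand.

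A group of 3 pairs over 88.1 kb of chromosome 7 lay in Abcc8, Ush1c and Otog. Abcc8 encodes the sulphonylurea receptor of KATP channels, Ush1c the scaffold protein harmonin and Otog a glycoprotein of the inner ear. The Ush1c pair had 13.5 and 12.2 tags per kb, the Otog pair 13.6 and 10.9, and the Abcc8 pair 10.7 and 11.2, in mdx IKKβf/f and mdx HRTΔIKKβ. Another group of 3 pairs on chromosome 7, over 160 kb (145694455 to 145854230), held no protein-coding gene. The tightest group was of 2 pairs 3.71 kb apart on chromosome 8 (12034477 and 12038187), with 11.1 and 17.5 tags per kb in one and 10.7 and 10.2 in the other. On chromosome 11, 2 pairs lay 7.06 kb apart, with overlaps of only 40 and 29 bp.

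Pairs lay in the bodies of 170 of 22367 protein-coding genes, 0.76%, while mdx IKKβf/f regions lay in 3294 (14.7%) and mdx HRTΔIKKβ regions in 5200 (23.2%). Of 1953 genes that held a region of each genotype, 169 (8.65%, 7.49% to 9.98%) held a pair. A gene was thus more often marked in both genotypes than any 1 place in it. Genes with a pair had a median length of 89.0 kb against 15.3 kb for the other genes, and a longer gene has more room for a region of either list. The annotation also holds some very long gene models, such as that of Fgfr2, which spans 3009 kb on chromosome 7.

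Only 3 genes held more than 1 pair. Erc2, an 856 kb gene that encodes a scaffold of the presynaptic active zone, held 3, all in introns, among its 13 mdx IKKβf/f and 16 mdx HRTΔIKKβ regions. Their values were 9.34, 9.34 and 9.68 tags per kb in mdx IKKβf/f against 10.9, 9.60 and 13.2 in mdx HRTΔIKKβ, and all 3 were higher in mdx HRTΔIKKβ by less than counting error. Sdk2, which encodes a cell adhesion molecule, held 2 (10.7 and 11.2 tags per kb in one, 10.0 and 9.92 in the other). Plcl2, which encodes a phospholipase C-like protein, held 2 as well (10.7 and 11.5, and 10.4 and 8.96).

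Within 1 kb of a protein-coding TSS lay 24 pairs, and the 20 nearest belong to genes with varied roles. The start is that of any annotated transcript, and only 9 of these 20 pairs were also within 1 kb of the outermost start of their gene. The others, such as those of Kctd19 (28.3 kb), Tead3 (14.7 kb) and Shc2 (14.3 kb), lay further inside it. Regulators of transcription among them were Pdx1, a homeobox gene of the pancreas, Fezf1, and Tead3, a TEAD factor. At Pdx1, whose pair was 0.257 kb from its outermost start, the signal was 11.0 tags per kb in mdx IKKβf/f against 10.9 in mdx HRTΔIKKβ, and at Tead3 it was 10.0 and 11.5. Fbxo40, which encodes a ubiquitin ligase subunit of striated muscle, had 10.4 and 11.5. Receptors and signalling genes were Nmur2, a neuromedin U receptor (10.7 and 13.6), and Shc2, an adaptor (12.8 and 14.7). Enzymes and transporters were Acox2, a peroxisomal oxidase (11.1 and 10.2), Slc38a7, an amino acid transporter (9.34 and 9.28), and Slco4c1, an organic anion transporter (11.5 and 9.92). Rec8, a cohesin subunit of meiosis, had 10.8 and 10.6, and Spnb5, a spectrin gene, 10.7 and 11.0. The remaining genes were Wbp2nl, Cercam, Gmip, Gm10760, Kctd19, 2300003K06Rik, Klhl1, Gm10029 and 6430548M08Rik, with 9.34 to 12.4 in mdx IKKβf/f and 8.96 to 18.1 in mdx HRTΔIKKβ. The pair nearest to the start of Gm10760 lay in exon 1 of Mctp1. Wbp2nl and 2300003K06Rik, described above among the 8 pairs whose interval left out 1, were the only ones of the 20 in that group.

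The 5 longest overlaps, of 630 to 673 bp, joined wider regions of middling signal. Of these, 4 are described. One was a pair 2.41 kb from the start of Igsf21, a synaptic adhesion gene (11.1 and 11.8 tags per kb in mdx IKKβf/f and mdx HRTΔIKKβ), and another an intergenic pair 62.5 kb from Gria4, an AMPA receptor gene (10.6 and 8.90). An intergenic pair 176 kb from Sec16b (9.92 and 10.9) and an exonic pair in 5430405G05Rik (11.8 and 10.7) followed. The difference between genotypes was within counting error in all 5.

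Among genes with regions of both genotypes, those of 9 pooled lists held pairs about as often as all protein-coding genes. The pooled share does not describe each list. The lists of calcium channels, pumps and exchangers and of sarcomere and Z-disc genes held no pair. Among 240 genes in 9 lists, 59 held a region of each genotype, and 5 of these held a pair (8.47%, 3.67% to 18.4%), against 8.65% of all such genes. Potassium and sodium channels gave 3 of 27 genes (11.1%, 3.85% to 28.1%), against 0.76% of all protein-coding genes. This is a small count in 1 of 9 lists, whose genes had a median length of 37.4 kb. The pair in intron 2 of Kcnd3, the Kv4.3 subunit of the transient outward current, had 12.8 tags per kb (9.01 to 17.6) in mdx IKKβf/f against 10.6 (7.27 to 14.8) in mdx HRTΔIKKβ. Kcnip2, the accessory subunit of the same current, had a pair in its last exon, 23.4 kb from the outermost start of the gene, with 9.34 (6.15 to 13.6) and 10.3 (7.45 to 13.9). The Kcnip2 pair is counted at a promoter, as it lay 1.62 kb from the start of another annotated transcript of the gene. Abcc8 had 10.7 (7.63 to 14.7) and 11.2 (8.16 to 15.1).

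Calcium signalling enzymes gave 1 of 26, Camk1g, a calmodulin-dependent kinase, with 10.4 (7.00 to 14.8) in mdx IKKβf/f against 10.2 (7.01 to 14.5) in mdx HRTΔIKKβ in its intron 2. The Camk1g pair is also counted at a promoter, 1.10 kb from a transcript start of the gene and 9.31 kb from its outermost start. Extracellular matrix genes gave 1 of 28, Mmp2, the gene of a gelatinase, with 14.2 (10.2 to 19.2) and 9.60 (6.48 to 13.7) in exon 5, a ratio of 0.677 (0.409 to 1.11). The differences between genotypes in these 5 pairs were within counting error. No gene held a pair among 43 calcium channels, pumps and exchangers, 28 sarcomere and Z-disc genes, 18 genes of the dystrophin complex, 21 cardiac transcription factors, 25 NF-κB pathway genes and 24 genes of histone acetylation and CTCF. Of the 43 calcium transport genes, 18 (41.9%) held an mdx IKKβf/f region and 30 (69.8%) an mdx HRTΔIKKβ region, against 14.7% and 23.2% of all protein-coding genes, and their median length was 122 kb. Cacna2d3, an auxiliary subunit of voltage-gated calcium channels, held 8 and 20 without an overlap, and Atp2b2, a calcium pump of the plasma membrane, held 9 and 10. With 3.19% and 1.74% of all regions in a pair, such counts without an overlap are usual for these lists. With 0.76% of all protein-coding genes holding a pair, 2.08% of these listed genes held one (0.893% to 4.78%, a count of 5). The median length was 48.6 kb over the 240 genes and 26.1 kb over the 5 with a pair.

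The labelled tissue was checked against 41 marker genes, and none held a pair, where 0.76% of all protein-coding genes did. Of 12 cardiomyocyte markers, Ttn and Ryr2 held a region in mdx IKKβf/f, and Ttn, Ryr2 and Gata4 in mdx HRTΔIKKβ. Myh6, Tnnt2, Tnni3, Myl2, Mybpc3, Actn2, Nppa, Pln and Nkx2-5 held none in either list. Fibroblast markers had a region in 3 and 2 of 7 genes, endothelial markers in 1 and 3 of 6, macrophage markers in 3 and 4 of 6, skeletal muscle markers in 0 and 2 of 6 and hepatocyte markers in 0 and 2 of 4. The cardiomyocyte markers with a region, 16.7% (4.70% to 44.8%) and 25.0% (8.89% to 53.2%), were thus near the 14.7% and 23.2% of all protein-coding genes, and neither list marks the tissue as heart by these genes.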

How the data were processed

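H3K27ac ChIP-seq of hearts of 7-month-old mice was analysed, with 1 ChIP library per genotype, from the 2 region lists made against matched inputs. The authors mapped paired reads with Bowtie2 to mm9, keeping unique alignments, and called regions with HOMER findPeaks in histone mode (tools and build as in the submitters' processing notes, versions not given in the sources used here). Per the file headers, the caller scanned 500 bp windows and required 4-fold over input and a Poisson p-value of at most 1.00e-04, which the authors deposited with the fold, a ratio of ChIP to scaled input tags. The deposited normalized tags are a signal (coverage) scaled to 10000000 tags per library, and the input tags carry 0.5 in place of 0. The deposited score is used as it stands, and the sources used here do not define it. The fold and p-value compare ChIP with input and not the genotypes.

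Overlaps of at least 1 bp defined the pairs. Raw tags were recovered from normalized tags and library totals (57852347 and 62458751) for exact Poisson intervals per region, exact (Clopper-Pearson) intervals of tag ratios, Wilson intervals of shares and order-statistic intervals of medians, all at 95% and for counting error only. With 1 library per genotype no test was made, and p-values were neither computed nor used to compare genotypes. GENCODE vM1 on NCBIM37, the same assembly as mm9, gave genes and sequence. The 2 pairs on unplaced sequence were left out of those steps. A pair lay in a gene when the centre of its overlap did. Promoters reach 3 kb from a TSS of any transcript, and pairs were linked within 100 kb. Exon and intron numbers are those of the longest transcript.

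The members and gene lists were chosen with earlier results of these data known. Named pairs were the 10 highest in mean tags per kb, the 5 highest and 5 lowest in log2 ratio, and the 5 longest overlaps. Also named were up to 20 within 1 kb of a protein-coding TSS and those in genes with 2 or more pairs or in a listed gene. The 5 groups with the most pairs, shorter first among equals, and the 5 pairs with the highest product of scores completed them. Of the pairs so named, 2 are counted with the others but not reported singly here. Alternatives covered the overlap, fold over input, score, width, TSS set, gene boundary, linking distance and GC window. Overlap, distance and intervals were tested on simulated data, and 11 of 11 checks gave what had been built in. The tools were pysam 0.24.0, pandas 2.3.3, matplotlib 3.10.9, SciPy 1.17.1 and NumPy 2.4.6 under Python 3.11.15.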

Additional observations from a re-analysis of the deposited data

How the results depend on the processing

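Of 24 alternatives to 9 results, 10 stayed within 1.5 times a count or within the 95% interval of a value and 14 did not. Of the 24, 3, on listed genes and on GC, were chosen after seeing the data. The 401 pairs became 261 with an overlap of at least 50% of the narrower region, 236 with 50% of each, 819 with one list extended by 1000 bp on each side, 97 and 12 at 5-fold and 8-fold over input in both lists, and 49 and 3 at scores of 1.2 and 1.5 times the lowest. The median log2 ratio moved to -0.11 in pairs of 500 bp regions, against -0.06 for the caller's thresholds, and was below 0 under all 4 alternatives. All 4 keep those thresholds, and the part of the thresholds in the shift was not tested. With protein-coding TSS only, 12.3% of pairs lay within 3 kb and the median distance was 41.8 kb. Gene bodies extended by 10 kb held 51.9% of pairs against 41.4%. Another pair lay within 50 kb of 4.26% and within 1000 kb of 35.8%. The median GC content was 48.5% in 1000 bp windows. The GC difference of 2.33 percentage points between mdx IKKβf/f regions with and without a partner was 2.33 in regions of 500 bp and 1.67 over 3 kb from a TSS. No paired analysis was possible because each genotype had 1 ChIP library, and for the same reason no library could be left out. The number of pairs rests on tag counts near the calling threshold in both lists, and windows that were not called are not analysed here.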
